A study of Mus musculus with 10 samples.

Results

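The hexokinase family was followed through the CUT&Tag tables by taking each region that the annotation assigns to Hk1, Hk2, Hk3 or Hkdc1. These 4 genes held 63 of the 340994 entries listed in 5 tables, of which 24 of 72990 were JUN regions, 14 of 58633 SMAD3 regions, 11 of 68767 NFATC2 regions and 7 of 74751 regions of lactylated H3K9 (H3K9lc). A further 7 of 65853 were H3K9lc regions in a table that sets TGF-β against an untreated control. The regions were chosen by gene name alone, and the annotation gives each region to the gene with the nearest start site.

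The cells were primary fibroblasts from the mouse heart. CUT&Tag uses an antibody to bring a transposase to chromatin, so that DNA near the bound protein or histone mark is cut out and sequenced. The libraries labelled TGF were treated with TGF-β, a cytokine that activates fibroblasts, and those labelled SI or SIHK1 (siHK1 here) received an siRNA against Hk1 and then TGF-β. The NC library is the control without TGF-β. Each of H3K9lc, c-JUN (JUN), SMAD3 and NFATC2 was profiled in 1 TGF-β and 1 siHK1 library, and NC, whose title gives no antibody, is taken as H3K9lc from the table to which it belongs. The strain and age of the mice and the number pooled are not given in the labels. An siRNA leaves the Hk1 locus itself in place, so these tables measure chromatin at the gene whose mRNA was targeted and do not show how far the mRNA was depleted. With 1 library per condition there is no replicate error. Differences were therefore not tested, and each ratio carries an exact (Clopper-Pearson) 95% interval for counting error only, which treats reads as independent molecules.

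Hexokinases phosphorylate glucose to glucose-6-phosphate, the step that traps glucose in the cell and starts glycolysis, whose end product can be turned into lactate. HK1 is the broadly expressed isoform. HK2 is the inducible isoform of muscle, heart and many proliferating cells, and both can dock on the outer mitochondrial membrane through voltage-dependent anion channels. HK3 is found mainly in myeloid cells, and HKDC1 is a less active relative whose gene lies beside Hk1. JUN belongs to the AP-1 factors, SMAD3 carries TGF-β signals to chromatin, and NFATC2 is a calcium-dependent factor. Lactylation is the addition of a lactyl group to lysine, here at H3K9.

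Totals over listed regions ran from 354599 reads (NFATC2, siHK1) to 4215447 reads (JUN, TGF-β), apart from NC with 115572. The TGF-β library had the more reads in listed regions in every pair. Such totals are not sequencing depths, so fewer reads sequenced and less signal in the regions cannot be told apart here. The hexokinase genes took 2271 and 1293 of the JUN reads in TGF-β and siHK1, 115 and 63 of the H3K9lc reads, 97 and 86 of the SMAD3 reads and 71 and 31 of the NFATC2 reads. All 24 hexokinase JUN regions had enough reads to compare singly, and few regions of the other antibodies did. As a check of the cell label, JUN regions lay within 3 kb of a start site at 11 of 12 fibroblast marker genes (all but Lum), 4 of 6 endothelial, 2 of 7 cardiomyocyte and 2 of 6 leukocyte genes. Summed JUN levels near the fibroblast genes were 289 and 270.3 RPM (reads per 1000000 listed reads of the library) in TGF-β and siHK1, those near the cardiomyocyte genes 31.3 and 24.7 and those near the leukocyte genes 64.1 and 66.5. The other antibodies did not set the fibroblast genes apart from the cardiomyocyte genes. SMAD3 regions lay near 6 of the 12 fibroblast and 3 of the 7 cardiomyocyte genes, with sums of 42.6 and 92.5 RPM near the former and 280.4 and 215 near the latter, of which 1 gene gave 250.2 and 188. NFATC2 regions lay near 8 of the 12 and 5 of the 7, with sums of 74.7 and 116 against 76.4 and 81.8, but near only 1 of 6 endothelial (15.6 and 11.3) and 1 of 6 leukocyte genes (6.95 and 0). H3K9lc regions lay within 3 kb of a start site at 2 of the 12 fibroblast and 2 of the 7 cardiomyocyte genes. Their sums were 16.5 and 7.75 RPM near the former and 3.21 and 7.05 near the latter. At 1 of 6 endothelial genes they were 25.7 and 19.7. Col1a1, Col1a2, Col3a1 and Postn had no H3K9lc region within that distance, and regions further away were not counted. The study describes these 4 genes as apparently demarcated by H3K9lc. The part of other cell types in the hexokinase values was not tested.

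A few JUN sequences are printed first, because JUN, a subunit of AP-1, gave most of the hexokinase reads. They are the regions of most JUN reads in Hk1 and in Hk2, the Hk1 locus listed for 3 of the 4 antibodies, and the Hk2 regions at least 2-fold lower in siHK1. Each line is the GRCm38 plus strand, 300 bp long and centred on the AP-1 match of the region (in the first, on a pair of matches that end the window on either side), with each match to TGANTCA in capitals. The windows were placed on a match, so its presence in them is no finding. The first is an Hk1 intron, the second lies upstream of an internal Hk1 start site, the third is an Hk2 intron, and the last 2 are the Hk2 intronic and distal regions with the lowest siHK1 to TGF-β ratios of JUN.
Hk1 intron, chr10:62300065-62300364: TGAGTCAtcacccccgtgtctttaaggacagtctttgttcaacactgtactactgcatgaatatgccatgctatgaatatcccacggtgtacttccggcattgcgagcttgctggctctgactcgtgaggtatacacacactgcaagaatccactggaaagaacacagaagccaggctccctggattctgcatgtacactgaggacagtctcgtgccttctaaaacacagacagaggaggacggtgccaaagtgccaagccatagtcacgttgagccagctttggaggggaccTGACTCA
Hk1 upstream of an internal start site, chr10:62320452-62320751: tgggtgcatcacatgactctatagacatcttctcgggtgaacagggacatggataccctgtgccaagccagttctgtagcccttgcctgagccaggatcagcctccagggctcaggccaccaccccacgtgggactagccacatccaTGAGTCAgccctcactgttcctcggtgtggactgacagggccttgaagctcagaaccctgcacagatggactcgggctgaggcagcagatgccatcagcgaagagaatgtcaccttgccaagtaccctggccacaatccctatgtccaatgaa
Hk2 intron, chr6:82756295-82756594: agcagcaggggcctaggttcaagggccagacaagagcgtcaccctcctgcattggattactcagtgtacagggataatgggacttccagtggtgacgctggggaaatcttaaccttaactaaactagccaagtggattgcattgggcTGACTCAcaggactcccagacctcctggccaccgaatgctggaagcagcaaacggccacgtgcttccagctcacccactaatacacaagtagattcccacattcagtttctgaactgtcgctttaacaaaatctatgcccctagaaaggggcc
Hk2 intron lower in siHK1, chr6:82749602-82749901: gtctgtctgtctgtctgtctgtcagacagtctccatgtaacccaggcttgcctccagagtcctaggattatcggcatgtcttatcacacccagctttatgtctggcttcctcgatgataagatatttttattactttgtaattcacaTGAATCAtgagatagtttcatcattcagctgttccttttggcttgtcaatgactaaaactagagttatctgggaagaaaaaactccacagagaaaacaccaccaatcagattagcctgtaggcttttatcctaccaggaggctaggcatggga
Hk2 distal region lower in siHK1, chr6:82797503-82797802: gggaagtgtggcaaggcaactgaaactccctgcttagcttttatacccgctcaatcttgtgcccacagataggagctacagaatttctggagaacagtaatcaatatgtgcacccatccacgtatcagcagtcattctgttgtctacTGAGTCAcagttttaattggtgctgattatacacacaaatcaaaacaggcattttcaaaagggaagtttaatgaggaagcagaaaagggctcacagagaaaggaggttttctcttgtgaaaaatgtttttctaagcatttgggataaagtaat

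The Hk1 promoter is shown because JUN and NFATC2 regions lie on it, and the Hk2 promoter because a JUN region does. Both are on the gene's own (minus) strand, from 250 bases before to 50 after the RefSeq start (GRCm38.p6), with the NFAT core GGAAA or its reverse complement TTTCC in capitals.
Hk1 promoter, chr10:62340372-62340671: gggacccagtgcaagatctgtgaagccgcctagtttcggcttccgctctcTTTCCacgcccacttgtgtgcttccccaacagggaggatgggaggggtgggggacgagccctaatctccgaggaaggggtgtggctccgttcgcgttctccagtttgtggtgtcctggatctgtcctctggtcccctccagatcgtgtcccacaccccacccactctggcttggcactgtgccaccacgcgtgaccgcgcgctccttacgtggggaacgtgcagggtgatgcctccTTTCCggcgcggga
Hk2 promoter, chr6:82774405-82774704: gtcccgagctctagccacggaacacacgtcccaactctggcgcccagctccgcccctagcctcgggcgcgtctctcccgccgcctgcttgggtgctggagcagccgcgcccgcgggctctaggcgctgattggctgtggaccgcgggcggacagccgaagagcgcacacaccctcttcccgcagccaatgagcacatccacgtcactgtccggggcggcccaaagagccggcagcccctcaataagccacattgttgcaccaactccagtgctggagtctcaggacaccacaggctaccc

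Searched on both strands, TGANTCA was found in the central 300 bp of 10 of the 24 hexokinase JUN regions, near the 39.8% of all JUN regions. It was in 3 of 7 hexokinase H3K9lc regions (9.44% of all), 3 of 14 SMAD3 regions (10.4%) and 1 of 11 NFATC2 regions (10.1%), counts too small to read as a difference. None of the 5 RefSeq promoters of the family held it, against 7.81% of 32851 promoters. The NFAT core GGAAA was in 3 of the 5, against 61.3%, and the SMAD motif CAGAC in 2 of the 5, against 49.6%. No motif is part of another, and a match describes the letters and is not a bound site.

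Hk1, the gene targeted by the siRNA, had regions for all 4 antibodies. JUN at Hk1 gave 846 reads over 6 regions in TGF-β and 541 in siHK1, a ratio of 1.19 at equal totals (interval 1.06 to 1.32). NFATC2 gave 64 and 20 reads over 6 regions, a ratio of 0.507 (0.291 to 0.849). H3K9lc gave 92 and 55 reads over 5 regions, a ratio of 1.05 (0.737 to 1.48), and SMAD3 61 and 46 reads over 7 regions, a ratio of 1.06 (0.709 to 1.58). Of the 4 antibodies, the NFATC2 sum of Hk1 was lower in siHK1 and the JUN sum slightly higher, beyond counting error. For H3K9lc and SMAD3 the interval held equal levels. No hexokinase NFATC2 region was called a peak in both libraries. The Hk1 regions of most NFATC2 reads (25 and 10, 21 and 3) were called in TGF-β alone. Being listed that way favours a low ratio, so the sum cannot decide whether NFATC2 changed at Hk1. The siHK1 libraries had the fewer reads in listed regions, and without scaling to equal totals the JUN sum of Hk1 was lower, with a log2 ratio of −0.64. At equal totals none of these sums passed the 2-fold threshold used for calls throughout, which also required at least 10 reads over both libraries once brought to the smaller total. Without scaling the NFATC2 sum did (log2 −1.65), and that of H3K9lc was −0.74. Of all genes tested, 2.91% were at least 2-fold lower and 2.47% higher in siHK1 for JUN, 2.90% and 2.99% for H3K9lc, 10.6% and 21.0% for SMAD3 and 7.39% and 14.3% for NFATC2. Of single regions, 8.28% and 5.61% were lower and higher for JUN, 7.85% and 6.57% for H3K9lc, 13.8% and 30.2% for SMAD3 and 12.7% and 13.7% for NFATC2. Among all genes the NFATC2 ratio of Hk1 was low, with 8.2% of genes below it, whereas 76.9% of genes lay below the JUN ratio.

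**Figure D1:**
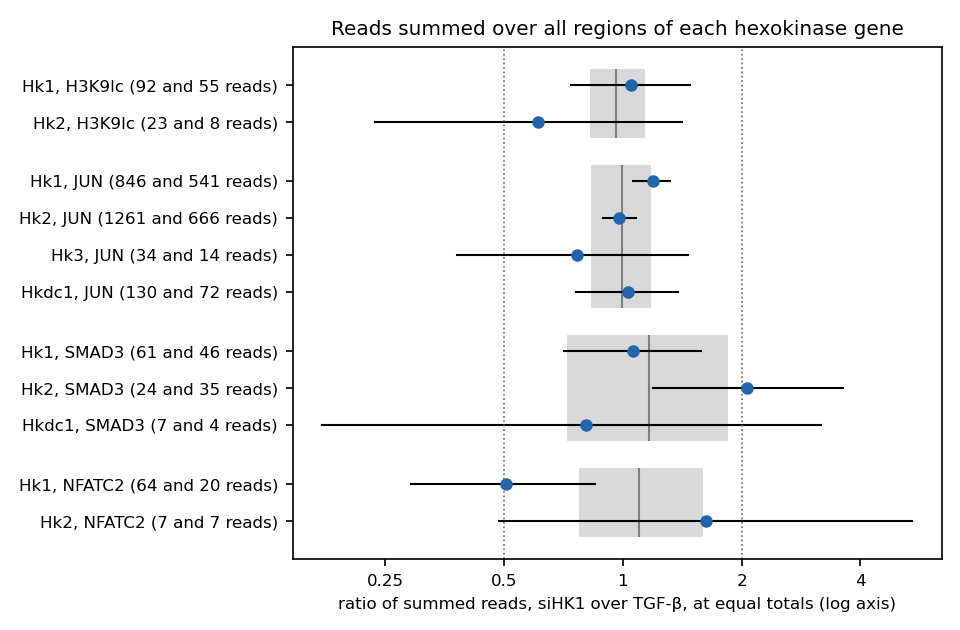
Ratio of siHK1 to TGF-β reads (log axis, equal totals) summed over the regions of each gene and antibody. Points are ratios, black lines exact 95% counting intervals, grey bars and lines the quartiles and median of all genes of that table, and dotted lines 2-fold; sums of fewer than 10 reads in the 2 libraries together are left out. Hk1 for NFATC2 lies at 0.507 and Hk2 for SMAD3 at 2.06, while the JUN ratios lie between 0.764 and 1.19.

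One Hk1 intron was the strongest hexokinase site for JUN and the only one of 47 hexokinase loci listed for all 4 antibodies. At chr10:62299788-62300775, in an intron and 9459 bp upstream of the nearest annotated (internal) start site, JUN gave 521 reads in TGF-β and 349 in siHK1. Its level was 125 RPKM (RPM per kb of region) in TGF-β and 156 in siHK1, above 99.7% and 99.8% of all JUN regions. The ratio was 1.24 (1.08 to 1.43). SMAD3 at the same place (chr10:62299877-62300508) had 12 reads in TGF-β and 20 in siHK1, a ratio of 2.35 (1.09 to 5.27). NFATC2 (chr10:62300111-62300610) had 25 and 10 reads, a ratio of 0.649 (0.278 to 1.40), and H3K9lc (chr10:62300070-62300351) had 9 and 2, too few for a call. JUN and SMAD3 were thus higher in siHK1 here beyond counting error, and for NFATC2 and H3K9lc the interval held equal levels. The SMAD3 log2 ratio of 1.21 lay near the upper quartile of all SMAD3 regions tested (1.19, with a median of 0.31). This intron gave 61.6% of the Hk1 JUN reads in TGF-β and 64.5% in siHK1. Without it, the other Hk1 regions gave 325 and 192 JUN reads and a ratio of 1.10 (0.912 to 1.31), so the Hk1 JUN sum exceeded counting error only with it.

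The locus listed for 3 of the 4 antibodies lay upstream of an internal Hk1 start site, at chr10:62319585-62320896, with its near edge 1192 bp from that site. JUN (chr10:62319855-62320896) gave 101 reads in TGF-β and 56 in siHK1, a ratio of 1.03 (0.729 to 1.44). H3K9lc within that region (chr10:62320098-62320896) gave 26 and 4 reads, a ratio of 0.270 (0.0685 to 0.778). This was the only one past 2-fold of the 4 hexokinase H3K9lc regions with enough reads. SMAD3 (chr10:62319585-62319987) gave 9 and 10 reads, a ratio of 1.57 (0.572 to 4.36). The H3K9lc interval lay below equal levels, and its upper end overlapped the lower end of the JUN interval. This H3K9lc region was called a peak in TGF-β alone, and being listed that way favours a low ratio.

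At the Hk1 start site (chr10:62339712-62340865), whose sequence is given above and which also overlaps exons of the antisense gene Hk1os, JUN and NFATC2 differed in direction. JUN gave 112 reads in TGF-β and 90 in siHK1, a ratio of 1.49 (1.12 to 1.99). NFATC2 at chr10:62340230-62340545 gave 21 and 3 reads, a ratio of 0.232 (0.0443 to 0.777), and its TGF-β level, 115 RPKM, was above 99% of NFATC2 regions. The 2 intervals did not overlap, but the NFATC2 region was called a peak in TGF-β alone and the JUN region in both libraries. Being listed through TGF-β favours a low ratio, so this contrast cannot decide whether the factors differ. Of the hexokinase NFATC2 regions only 2 had enough reads, and the one at this start site was past 2-fold. Without it, the other 5 Hk1 regions gave 43 and 17 NFATC2 reads and a ratio of 0.642 (0.343 to 1.15). The promoter printed above holds 2 matches to the NFAT core, and the NFATC2 region itself holds 1.

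Upstream of that start site, where further Hk1 transcripts begin, the marks differed again. H3K9lc was highest at chr10:62366022-62366888, an intronic region with 34 reads in TGF-β and 35 in siHK1, a ratio of 1.81 (1.09 to 2.99). This region was called a peak in siHK1 alone, whereas the other 6 hexokinase H3K9lc regions were called in TGF-β alone (24.2% and 54.7% of all H3K9lc regions). Beside it, chr10:62365207-62365724 had 15 and 9 reads, a ratio of 1.05 (0.406 to 2.57). Without the region of 34 and 35 reads, H3K9lc at Hk1 had 58 and 20 reads and a ratio of 0.605 (0.345 to 1.02), so the equal H3K9lc sums of Hk1 rested on it. The last H3K9lc region, in an intron at chr10:62308497-62308757, had 8 and 5 reads.

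SMAD3 at chr10:62374209-62375083 gave 15 reads in TGF-β and 2 in siHK1, a ratio of 0.188 (0.0209 to 0.808). The near edge lay 17 bp from an upstream start site of Hk1. This region was lower in siHK1 while the intron above was higher, and the 2 intervals did not overlap. It was called a peak in TGF-β alone, which favours a low ratio, and the intron in both libraries. The contrast therefore cannot decide whether the 2 regions differ. Other SMAD3 regions near Hk1 start sites had few reads. They were 11 and 6 at chr10:62359440-62359654, 2 and 4 at chr10:62361527-62361740 and 2 and 3 at chr10:62326733-62327085. An intronic SMAD3 region (chr10:62368991-62369241) had 10 reads in TGF-β and 1 in siHK1, too few for a call. Near start sites that also had SMAD3 regions, NFATC2 had 7 and 1 reads at chr10:62357310-62357602 and 3 and 1 at chr10:62375125-62375546. It had 6 and 0 reads at chr10:62382765-62382968, 2857 bp from another Hk1 start site. A count of 0 in that siHK1 library allows up to 8.46 RPM. The remaining NFATC2 region, in an intron, had 2 and 5 reads. The remaining JUN regions of Hk1 were 29 and 9 reads next to its last internal start site (chr10:62290876-62291431; ratio 0.576, 0.240 to 1.25), and 64 and 28 and then 19 and 9 reads in 2 introns, with intervals that held equal levels.

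**Figure D2:**
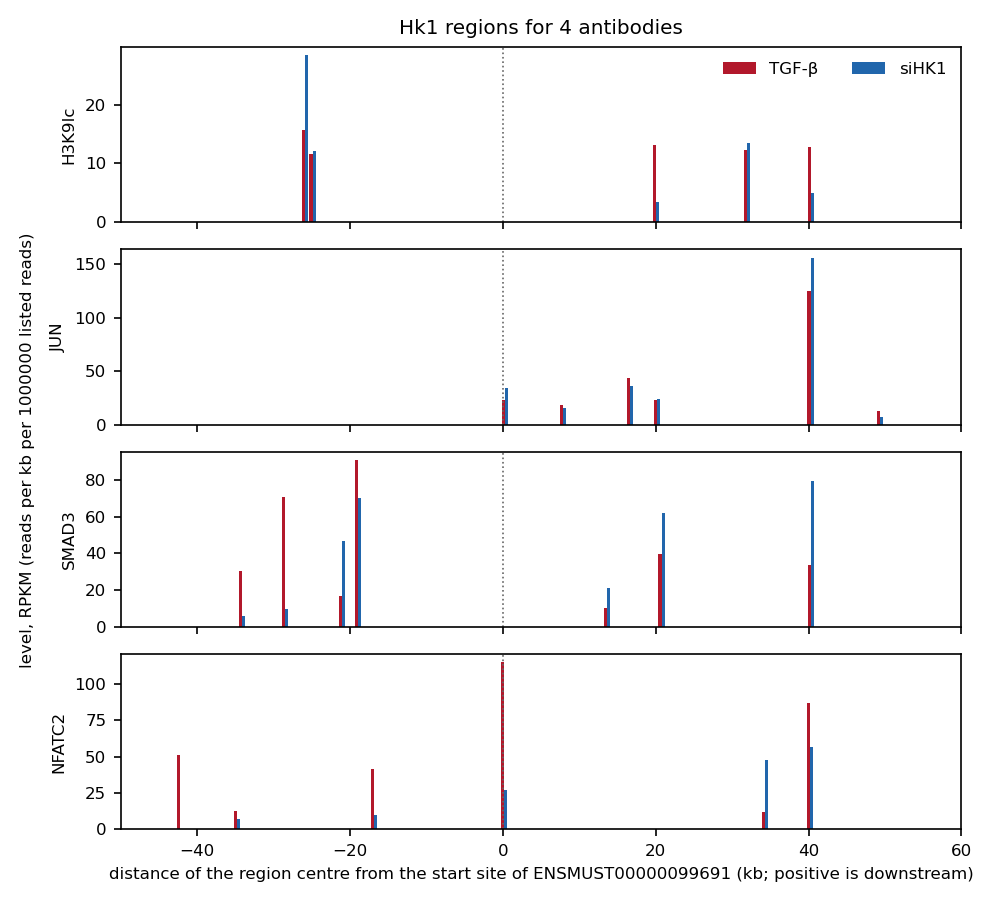
Levels (RPKM, reads per kb per 1000000 listed reads) of the Hk1 regions in TGF-β (red) and siHK1 (blue), against the distance in kb of the region's centre from the start site of the Hk1 transcript named on the axis; each row has its own scale. The intron with all 4 antibodies stands to the right, where JUN reached 125 and 156, and NFATC2 at the start site went from 115 to 26.8.

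Hk2 had the most JUN regions of the family, 13, and they summed to near-equal levels in TGF-β and siHK1. JUN gave 1261 reads in TGF-β and 666 in siHK1, a ratio of 0.980 (0.891 to 1.08). Single regions lay on both sides of this ratio. Most of the signal lay in intronic regions 4629 to 28585 bp downstream of the nearest start site. The highest, chr6:82756071-82757195, had 425 and 253 reads, a ratio of 1.10 (0.942 to 1.29) and a level above 98.8% of JUN regions in TGF-β and 99% in siHK1. Another intronic region, chr6:82760831-82761647, had 242 and 115 reads (ratio 0.882, 0.7 to 1.11), and chr6:82753127-82753461 had 115 and 54 (0.871, 0.619 to 1.21). For these 3 regions the interval held equal levels. The intronic region at chr6:82750793-82751362 had 96 and 74 reads, a ratio of 1.43 (1.04 to 1.96).

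JUN was lower in siHK1 at 2 Hk2 regions. The distal one, chr6:82797277-82798513, lies in no gene and 22823 bp upstream of the Hk2 start site. It gave 148 reads in TGF-β and 28 in siHK1, a ratio of 0.351 (0.226 to 0.529), the hexokinase region at least 2-fold lower with the most reads behind it, and was called a peak in both libraries. Its level went from above 75.8% of JUN regions to above 25.4%. The intronic one, chr6:82749636-82749869, gave 32 and 5 reads, a ratio of 0.290 (0.0882 to 0.750). Its interval did not overlap that of the neighbouring intronic region with a ratio of 1.43, which was called a peak in both libraries. The lower region was called in TGF-β alone, which favours a low ratio, so this contrast cannot decide whether they differ. A further distal region, chr6:82821883-82822212, went the other way with 16 and 21 reads, a ratio of 2.44 (1.21 to 4.99), beside one at chr6:82820508-82821225 with 27 and 10 (0.687, 0.297 to 1.47).

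At the Hk2 start site JUN gave 66 and 42 reads (chr6:82774321-82774810; ratio 1.18, 0.782 to 1.77). Just downstream it gave 27 and 11 (chr6:82773351-82773681; 0.756, 0.338 to 1.57). Neither differed beyond counting error. The other 3 Hk2 JUN regions had 36 and 29, 20 and 18 and 11 and 6 reads.

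SMAD3 at Hk2 gave 24 reads over 4 regions in TGF-β and 35 in siHK1, a ratio of 2.06 (1.19 to 3.61), the only hexokinase gene sum with enough reads past 2-fold, a call that was lost when the shared peaks set the scale (log2 0.94 against 1.03). It rested on the intron of highest JUN signal, where SMAD3 (chr6:82756358-82757072) gave 10 and 29 reads, a ratio of 4.09 (1.94 to 9.40). JUN over the same intron, called a peak in both libraries, had a ratio of 1.10, and the 2 intervals did not overlap. The SMAD3 region was called in siHK1 alone. Being listed that way favours a high ratio, so neither this contrast nor the sum can decide whether SMAD3 rose. Without that intron SMAD3 at Hk2 gave 14 and 6 reads and a ratio of 0.604 (0.190 to 1.67). The rest were 9 and 2 reads in another intron that JUN shares (chr6:82767946-82768246), 4 and 2 in an intron at chr6:82743402-82743627 and 1 and 2 upstream. For SMAD3, 21.0% of the 10734 genes tested were at least 2-fold higher in siHK1 and 10.6% lower, so 1 higher gene of the 2 hexokinase genes tested, Hk1 and Hk2, is not a result about the family.

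Reads of the other marks at Hk2 were few. NFATC2 gave 7 and 7 reads over 3 regions, namely 7 and 2 in an exon, 0 and 2 at 1 to 2 kb inside the gene and 0 and 3 at 2 to 3 kb upstream, and the sum had a ratio of 1.62 (0.486 to 5.42). H3K9lc gave 23 and 8 reads over 2 regions, a ratio of 0.611 (0.236 to 1.41). The larger, with 18 and 6 reads (ratio 0.585, 0.190 to 1.54), lies 52794 bp upstream in an intron of Gm32591, and the other, with 5 and 2, overlaps an exon of Gm17034 within Hk2. No H3K9lc region was listed within 3 kb of an Hk2 start site.

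**Figure D3:**
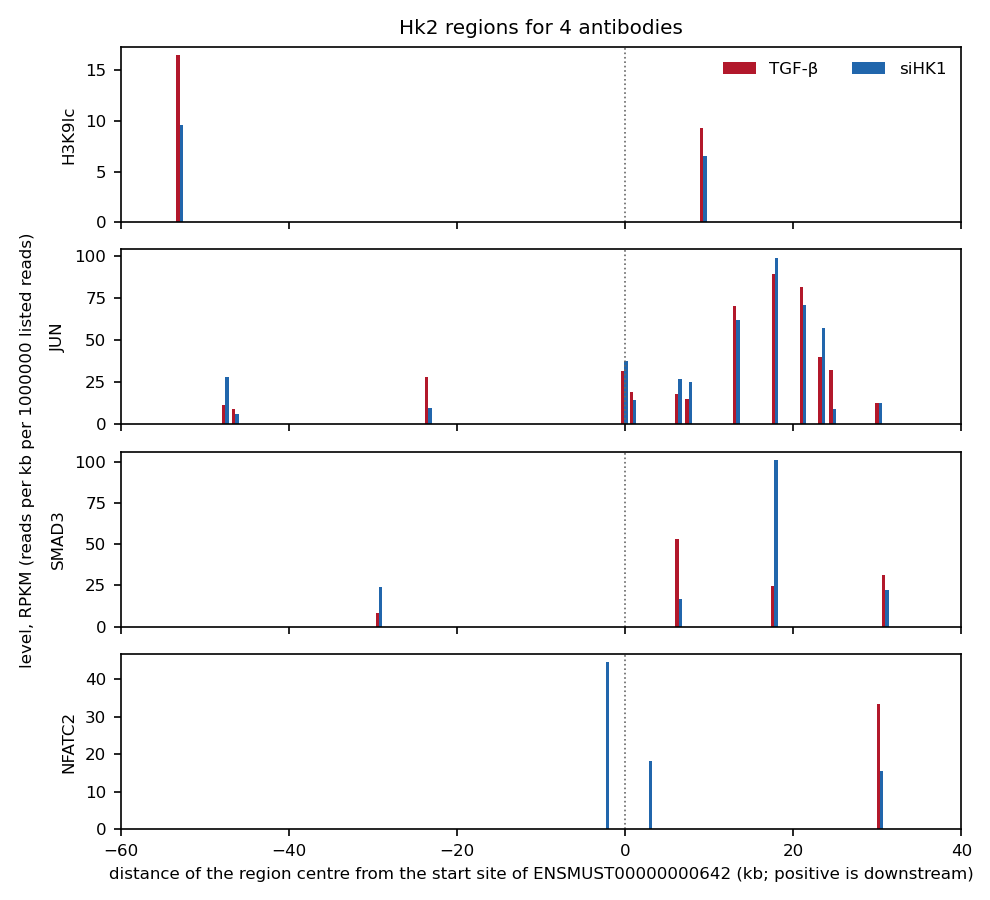
Levels (RPKM, reads per kb per 1000000 listed reads) of the Hk2 regions in TGF-β (red) and siHK1 (blue), against the distance in kb of the region's centre from the start site of the Hk2 transcript named on the axis; each row has its own scale. JUN fills the introns in both libraries, SMAD3 in the intron of highest JUN signal went from 24.8 to 101, and the distal JUN region went from 28.4 to 9.97.

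Hkdc1, the neighbour of Hk1, had 4 JUN regions with 130 reads in TGF-β and 72 in siHK1, a ratio of 1.03 (0.760 to 1.38). The highest, chr10:62401481-62402199, had 62 and 42 reads (ratio 1.26, 0.829 to 1.89). The region at chr10:62412942-62413787 had 46 and 12 reads, a ratio of 0.484 (0.233 to 0.929), just past 2-fold. It was called a peak in TGF-β alone, which favours a low ratio. The nearest hexokinase JUN ratio on the other side of the threshold was 0.576. Without that region the others gave 84 and 60 reads and a ratio of 1.33 (0.936 to 1.87). Those left were 14 and 11 reads at chr10:62418985-62419417 and 8 and 7 at chr10:62399788-62400017. All 4 lay within 3 kb of an annotated Hkdc1 start site. SMAD3 gave 7 and 4 reads, of which 6 and 2 lay at chr10:62411089-62411316 near a start site and 1 and 2 in an intron, and NFATC2 gave 0 and 2 in an exon. No H3K9lc region was listed for the gene.

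Hk3, the hexokinase of myeloid cells, had 1 region for each factor and none listed for H3K9lc. JUN 1201 bp upstream of its start site (chr13:55022586-55023102) gave 34 and 14 reads, a ratio of 0.764 (0.379 to 1.46). SMAD3 at the start site (chr13:55021408-55021703) gave 5 and 1 reads. The NFATC2 region had 0 and 2 reads and lies 21241 bp away in an intron of Uimc1. Its JUN level, 15.6 RPKM in TGF-β, was below the 125 and 89.6 of the highest Hk1 and Hk2 regions.

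**Figure D4:**
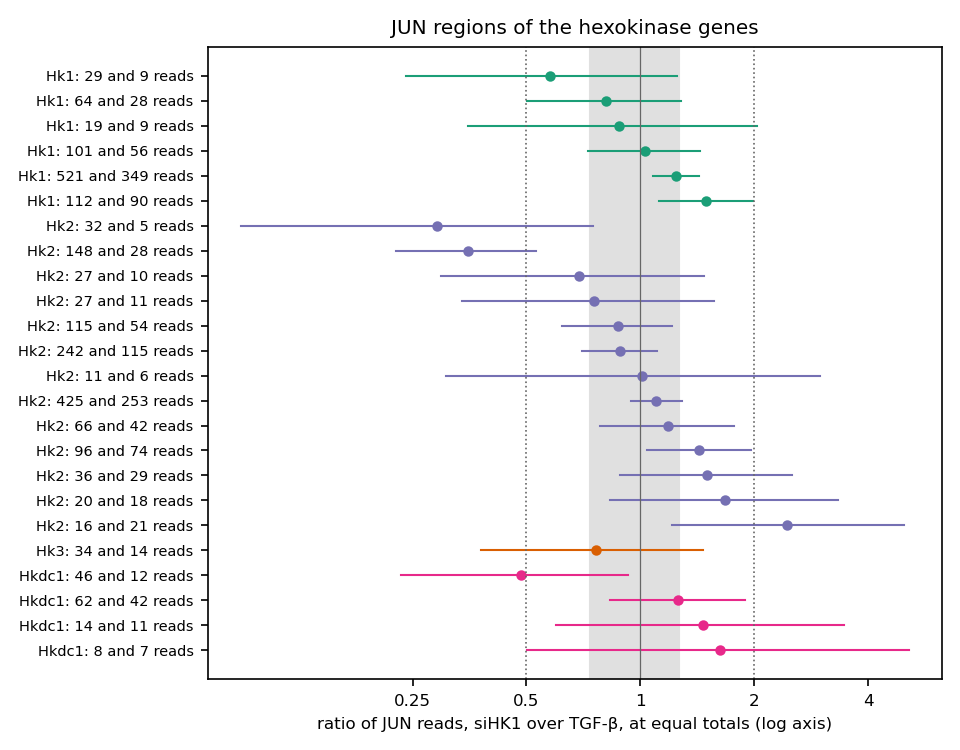
Ratio of siHK1 to TGF-β reads (log axis, equal totals) for each of the 24 JUN regions, by gene, with the reads of TGF-β and siHK1 on the left. Points are ratios, lines exact 95% counting intervals, the grey band the quartiles of all JUN regions and dotted lines 2-fold; 3 regions lie at or under 0.484 and 1 at 2.44.

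Counted over all hexokinase regions, 3 of 24 JUN regions were at least 2-fold lower in siHK1 and 1 was higher, against 8.28% and 5.61% of the 65135 JUN regions with enough reads. The median log2 ratio of the 24 was 0.06 and that of all JUN regions −0.02. For H3K9lc 1 of the 4 regions with enough reads was lower and 0 higher, against 7.85% and 6.57% of all. For SMAD3 1 of 5 was lower and 2 higher, against 13.8% and 30.2%. For NFATC2 1 of 2 was lower and 0 higher, against 12.7% and 13.7%. With so few regions these counts are no result about the family, and in JUN, where all regions could be counted, the shares were near the background. Of the gene sums at equal totals none passed the threshold for JUN, where 16304 genes were tested, for H3K9lc, with 11358, or for NFATC2, with 9875. Nearly all listed regions were called a peak in at least 1 of the 2 libraries, so a region called in 1 alone tends to be the higher there. For JUN 15 of 24 hexokinase regions were called in both libraries (49.7% of all JUN regions), for SMAD3 1 of 14 (4.98%), and for NFATC2 and H3K9lc none (3.61% and 20.8%).

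Of 47 distinct hexokinase loci, 41 were listed for 1 antibody, 4 for 2, 1 for 3 and 1 for all 4. The same count over all loci was not made, so it is no result about the family. Overlaps between pairs of antibodies are set beside those of all regions. Of the 24 JUN regions 4 overlapped a SMAD3 region (16.7%, against 18.1% of all JUN regions), 3 an NFATC2 region (12.5% against 15.4%) and 2 an H3K9lc region (8.33% against 6.07%). Of the 14 SMAD3 regions 4 overlapped JUN (28.6% against 23%), and of the 11 NFATC2 regions 3 did (27.3% against 16.7%). Of the 7 H3K9lc regions 2 overlapped JUN (28.6% against 5.92%), both in Hk1.

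TGF-β against the untreated control could not be compared at the hexokinase genes. NC gave 1 read at Hk1 and 1 at Hk2, against 65 and 23 in the TGF-β library of the same table. At equal totals these are ratios of 3.25 (0.563 to 130.2) and 1.15 (0.187 to 47.3), and none of the 7 regions had enough reads for a call. The region at chr10:62320098-62320896, with 26 reads in TGF-β, had 0 in NC. A count of 0 in NC allows up to 26 RPM, while the whole of Hk1 had 28.1 in TGF-β, so a level in NC below that of TGF-β was not detectable at a single region with so few NC reads. Over all listed H3K9lc regions of NC and TGF-β, 5.55% of 1605 regions were lower and 6.92% higher in TGF-β, and 2.0% and 9.49% of 3856 genes. This balance comes with equal totals, since 57.9% of genes tested were higher and 0.139% lower with the shared peaks setting the scale, and 100% were higher without scaling. The few reads of NC and its lack of TGF-β cannot be told apart.

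Among 30 further genes of glucose uptake, glycolysis, lactate handling and the mitochondrial docking partners of hexokinase, few JUN sums passed 2-fold. Of the 24 with a JUN region, 1 (Eno3, an enolase) was at least 2-fold lower in siHK1 and 0 were higher (2.91% and 2.47% of all genes tested), with a median log2 ratio of 0.07. Eno3 had 179 and 46 reads. Without scaling, 8 of 24 were lower for JUN (39.1% of all genes), 7 of 13 for H3K9lc (35.0%), 3 of 20 for SMAD3 (25.6%) and 11 of 22 for NFATC2 (30.1%), so the low counts hold at equal totals. For H3K9lc 1 of 11 tested was lower (Vdac1, a mitochondrial docking channel, 18 and 3 reads), against 2.90% of all genes. For SMAD3 1 of 17 was lower (Slc16a7, a monocarboxylate carrier, 185 and 60 reads) and 5 were higher, namely Adpgk, Pgam1, Slc16a3, Slc2a1 and Vdac3, against 10.6% and 21.0% of all genes, with a median log2 ratio of 0.81 (0.22 over all genes tested). Of the 5, Adpgk and Pgam1 lay just past 2-fold (log2 1.07 and 1.02), and with the shared peaks setting the scale 3 of 20 were higher (18.8% of all genes) and 3 lower (12.7%). For NFATC2 1 of 17 was lower and 2 higher (Adpgk and Vdac3), against 7.39% and 14.3%. With the shared peaks setting the scale, 2 of 17 were lower for NFATC2 (7.95%). Higher genes without scaling numbered 1 of 20 for SMAD3 (9.69%) and 0 of 22 for NFATC2 (4.60%). Slc2a1, the glucose transporter GLUT1, had 36 and 66 SMAD3 reads but 32 and 8 NFATC2 reads, higher for the one factor and lower for the other. Between NC and TGF-β, 1 of 5 tested genes was higher in TGF-β (Slc16a1, with 3 reads in NC and 163 in TGF-β) and 0 lower, against 9.49% and 2.0% of all genes, a call lost without the 100 regions of most reads. These counts are near the background or too small to be a result about the list.

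The genes whose levels over the 8 TGF-β and siHK1 libraries were most like those of Hk1 were Slc12a8, Slc24a5, Ksr1, Hrh4 and 5031425E22Rik, out of 3828 genes with at least 20 reads over both libraries for every antibody. Likeness was the Euclidean distance between log2 levels in RPM, 0.39 for Slc12a8 and 0.86 to 0.95 for the others, against a median of 4.21 over all genes compared. All genes share the same libraries, so this is a description over 8 libraries and has no test. Hk2, Hk3 and Hkdc1 had fewer than 20 reads for at least 1 antibody and did not enter, Hk2 with 7 and 7 NFATC2 reads among them.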

How the data were processed

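CUT&Tag regions and reads were used as the authors deposited them, with 1 pairwise table for each antibody. The deposited values used were raw read counts per region and library, and whether a peak was called in that library. The deposited log2 ratios, their p-values and calls are the authors' own comparison and were not used. Their normalized log2 columns carry headings that name no sample and were not used either. The study's methods name Bowtie2, MACS2 and the build GRCm39, whereas the submitters' processing notes name BWA 0.7.12 and mm10. All transcripts of the tables found in GENCODE vM21 (GRCm38) had identical coordinates there, so positions are given on GRCm38, counted from 1. Of the read columns, 1 that matches no sample label was not used.

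Counts were summed per gene and compared at equal totals over listed regions, which are not library depths. A call needed at least 2-fold and at least 10 reads over both libraries at the smaller total. Log2 ratios add 0.5 reads to each library. A spike-in was added by the authors, and its reads were not used here, so a gain or loss shared by the whole genome is hidden by the scaling to equal totals. The interval and the call were tested on simulated data. Python 3.11.15, pandas 2.3.3, numpy 2.4.6, scipy 1.17.1 and matplotlib 3.10.9 were used. The 4 genes and all gene lists were chosen with earlier results of these data known. Regions described in full were, for each gene and table, the highest, those within 3 kb of a start site and those past 2-fold. Alternatives covered scaling, the added reads, the read minimum, the fold and the regions summed.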

Additional observations from a re-analysis of the deposited data

Results flagged for a closer look

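For the library titled TGF the antibody is not known from the labels. It entered no comparison, and in its own table some hexokinase regions held more than the 3 reads that a count of 0 allows. Hk1 had 34 reads over 25 listed regions, Hk2 20 over 23, Hkdc1 15 over 6 and Hk3 1 over 7, of 479253 reads in all. The highest Hk1 region there, 1107 bp wide at chr10:62319790-62320896, held 10 reads, was not called a peak in this library and lies over the locus upstream of an internal start site at which JUN, SMAD3 and H3K9lc regions were listed. A second Hk1 region of 292 bp, chr10:62359365-62359656, held 6 reads. At Hkdc1 a region of 194 bp within 1 kb of a start site held 6 reads and an intronic region of 240 bp held 5. The last 3 were called peaks. The table holds a second read column that matches no sample label and was not used, so no control library was compared with these values.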

How the results depend on the processing

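All ratios compare 1 library with 1, so no replicate could be left out, and the number of reads limits H3K9lc, SMAD3 and NFATC2 to a few regions. No paired analysis was possible because there are no replicate numbers to pair. Sums on the authors' normalized log2 columns were not run, since their headings name no sample. The 16 hexokinase gene sums stayed within their counting interval with 1 or 0.1 reads added, with totals over chromosomes 1 to 19 and X, with a median ratio of 1 over shared peaks, and with totals that leave out the 100 regions of most reads (chosen after seeing the data). The 2-fold call of SMAD3 at Hk2 (log2 1.03) was lost under those last 2 scalings (0.94 and 0.97) and without scaling (0.54). NFATC2 at Hk1 (−0.95) went past 2-fold without the top regions (−1.01). Without the top regions Hkdc1's JUN loss also ended (log2 −0.99), leaving 2 lower JUN regions. The shared-peak scaling moved all log2 ratios by −0.03 to −0.09 in the siHK1 tables and by 0.83 in the NC table.

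Without scaling, log2 sums of JUN were −0.64 at Hk1, −0.92 at Hk2 and −0.85 at Hkdc1, and H3K9lc at Hk1 was −0.74, as the siHK1 libraries have fewer reads in listed regions. Hk3 for JUN (−1.25), Hk2 for H3K9lc (−1.47) and Hk1 for NFATC2 (−1.65) then passed 2-fold, and in the NC table Hk1 (5.45) and Hk2 (3.97). Lower regions then numbered 11 of 24 for JUN (45.9% of all regions), 3 of 6 for H3K9lc (45.7%), 3 of 7 for SMAD3 (33.8%) and 2 of 2 for NFATC2 (46.6%), with 0 higher for JUN (0.921%) and 1 for SMAD3 (16.0%), and 3 of 3 were higher in TGF-β over NC (99.9%). Within 3 kb of a start site the log2 sum of Hk1 was −0.81 for H3K9lc and −2.07 for NFATC2, and that of Hk2 4.16 for NFATC2, from 0 reads in TGF-β. The highest region alone gave 0.85 for H3K9lc and 1.21 for SMAD3 at Hk1, 0.14 for JUN and 1.99 for SMAD3 at Hk2, and −2.00 for H3K9lc at Hk1 in the NC table. With no minimum of reads, lower regions numbered 2 of 7 for H3K9lc (13.7% of all), 4 of 14 for SMAD3 (31.7%) and 3 of 11 for NFATC2 (25.6%), higher ones 5 for SMAD3 (32.8%) and 5 for NFATC2 (38.4%), and the NC table had 1 of 7 lower (24.9%) and 1 higher (14.7%). With at least 20 reads, no lower region was left for H3K9lc (0 of 1, 3.26% of all), SMAD3 (0 of 2, 8.41%) or NFATC2 (0 of 1, 6.54%). At 1.5-fold, H3K9lc had 2 of 4 lower (20%) and 1 higher (14.6%), and JUN 4 of 24 higher (14.2%). The other scalings of the 30 further genes were also chosen after seeing the data.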
